A study of Mus musculus with 16 samples.

Results

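Peaks of DNA double-strand break ends were described at 10 genes of fatty acid oxidation and its control in mouse cardiac myocytes, out of 21887 protein-coding genes on chromosomes 1 to 19, X and Y. The genes were Cpt1b, Cpt2, Acadvl, Acadm, Hadha, Hadhb, Ogdh, Ppargc1a, Ppara and Pdk4, a list given by name. A peak was given to a gene when it overlapped the annotated span, extended by 1000 bp on each side, by at least 1 bp (mm10). END-seq ligates adapters to broken DNA ends and so marks where double-strand breaks lie. Myocytes came from 3 mice of wild-type genotype (WT) and 3 of genotype Myh6-Cre:LmnaF/F (cKO), taken from the heart by the Langendorff method. In the latter, Cre recombinase under the promoter of the cardiac myosin gene Myh6 acts on floxed alleles of Lmna, which encodes the A-type lamins of the nuclear envelope. The labels give no age or sex and name no animals with Cre alone, so Cre and the loss of Lmna cannot be told apart. By its title, the study is about DNA breaks that arise from stress of transcription.

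The heart draws most of its ATP from the oxidation of long-chain fatty acids. These enter the mitochondrion as carnitine esters through CPT1 and CPT2 and are shortened by acyl-CoA dehydrogenases and the trifunctional protein, and the acetyl-CoA is burned in the tricarboxylic acid cycle. PPAR-alpha, a nuclear receptor activated by fatty acids, and its coactivator PGC-1 alpha drive transcription of these enzymes, and the kinase PDK4 restrains the use of glucose by inhibiting pyruvate dehydrogenase.

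The 6 peak lists differed in length before any gene was considered. The shortest was WT 1 with 1345 peaks, against 15458 in WT 2 and 8320 in WT 3. The longest was cKO 1 with 29743, against 13630 in cKO 2 and 22317 in cKO 3. The depth of sequencing behind each list is unknown, so a gene without a peak cannot be taken as free of breaks. In WT 1, 0 of 1345 peaks lay at the 10 genes, which allows a share of up to 0.223% of its peaks (3 counts; counting error only). The label of cKO 1 is in doubt, since its peaks are named WT-4, the same prefix as in WT 3. These lists shared 57 peaks with the same start and end, none of them with the same fold, so they are not 1 list deposited again. The main counts of genes and regions are also given without cKO 1. A peak list measures no expression, so the cell type could not be checked by its markers. Peaks in at least 1 list were found at 7 of 10 myocyte, 2 of 8 fibroblast, 6 of 8 endothelial and 2 of 8 immune marker genes, beside 38.3% of all protein-coding genes. The median spans of these lists were 17.2, 33.9, 75.5 and 18.2 kb.

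The strongest break site of the 10 genes lay among the start sites of Ogdh, and part of its sequence is shown here because the summits of all 5 lists that hold the peak fall in it. Peaks of different lists that overlap by at least 1 bp are called 1 region here, and the summit is the base of highest signal in a peak. The sequence is the plus strand of chr11:6292308-6292557, the 250 bases before a RefSeq start of Ogdh at position 6292558 (GRCm38.p6, the assembly of mm10). Capitals mark the 127 bases covered by the peak of every one of these 5 lists.
Ogdh: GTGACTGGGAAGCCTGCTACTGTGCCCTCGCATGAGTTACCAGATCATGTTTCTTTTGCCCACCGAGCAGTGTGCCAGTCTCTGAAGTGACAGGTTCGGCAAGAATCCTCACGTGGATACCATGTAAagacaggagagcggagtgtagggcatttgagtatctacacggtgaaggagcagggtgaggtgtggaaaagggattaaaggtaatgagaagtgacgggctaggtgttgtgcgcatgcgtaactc
The 5 summits lay at bases 109 to 112 of this stretch, 139 to 142 bp before the listed start. The letters CACGTG, an E-box, begin at base 110. On either strand they occur in 6.02% of 32851 RefSeq promoter stretches of the same length. The letters TGACGTCA, TCAAGGTCA and TATAAA and the palindromic NRF1 site were also searched on both strands and are not in this window. They occur in 1.55%, 0.387%, 12.4% and 0.782% of the stretches, in that order. These motifs were chosen after the sequence had been seen, and a match describes letters only.

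Of the 10 genes, 6 had a peak in at least 1 list, where 38.3% of all protein-coding genes had one. The other 4, Cpt1b, Cpt2, Acadvl and Hadhb, had none in any list. WT 1 had a peak at 0 of the 10 genes (1.63% of all genes), WT 2 at 4 (20.2%) and WT 3 at 2 (12.1%). For cKO 1 the number was 5 (31.6%), for cKO 2 it was 4 (17%) and for cKO 3 also 4 (24.9%). The mean was 4.33 ± 0.577 genes per cKO list and 2 ± 2 per WT list (SD, n = 3 each), and the groups touched, since WT 2 and 2 of the cKO lists had 4. The difference of 2.33 genes was 1.33 without WT 1 and 2 without cKO 1. With every list shortened to its 1345 peaks of highest fold it was 0.333. With WT 1 left out and the others shortened to 8320 peaks it was 1.17. At least 2 of 3 cKO lists had a peak at 5 of the genes (23.1% of all genes) and at least 2 of 3 WT lists at 2 of them (9.56% of all genes). Without cKO 1, 6 of the 10 genes still had a peak (31.7% of all genes), and 3 had one in both remaining cKO lists (15%). Ogdh and Hadha had a peak in every list but WT 1, as 6.83% of all genes did, and no member had one in all 6 lists (1.25%). Acadm had its only peak in a WT list, as 2.69% of all genes did, and no member was hit in at least 2 WT lists and no cKO list (0.16%). No member had a peak in all 3 cKO lists and no WT list, a pattern seen in 1.43% of all genes, or the reverse, seen in 0.00914%.

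**Figure D1:**
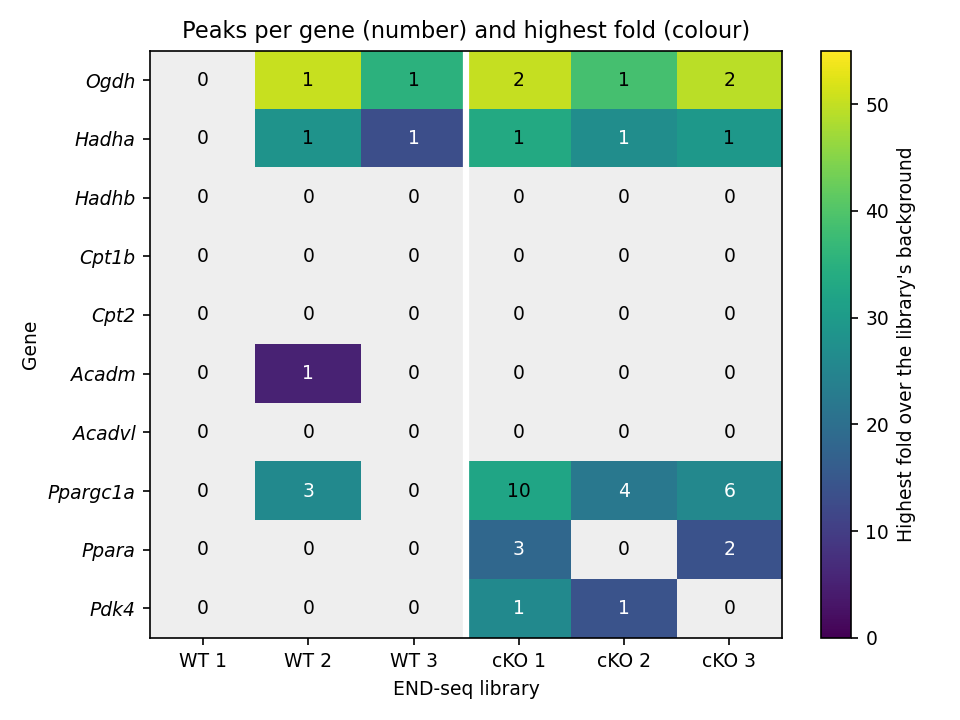
Peaks per gene in each END-seq library. Rows are the 10 genes and columns the 3 WT and 3 cKO libraries; the number is the count of peaks within the gene span plus 1000 bp, and colour is the highest fold of those peaks over the library's background (grey, no peak). Ogdh and Hadha have a peak in every list but WT 1, and 4 genes have none.

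Gene length went with the chance of a peak over the whole gene table. Spans under 20 kb had a peak in at least 1 list in 17% of genes, and 1 of the 4 members of that length did. For 20 to 50 kb the share was 44.8%, with 2 of 3 members. For 50 to 100 kb it was 71.3%, with both members, and for 100 kb and over it was 94.2%, with the only member, Ppargc1a. The 4 genes without a peak measure 5.25 kb (Acadvl), 9.46 kb (Cpt1b), 19.6 kb (Cpt2) and 29.3 kb (Hadhb).

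**Figure D2:**
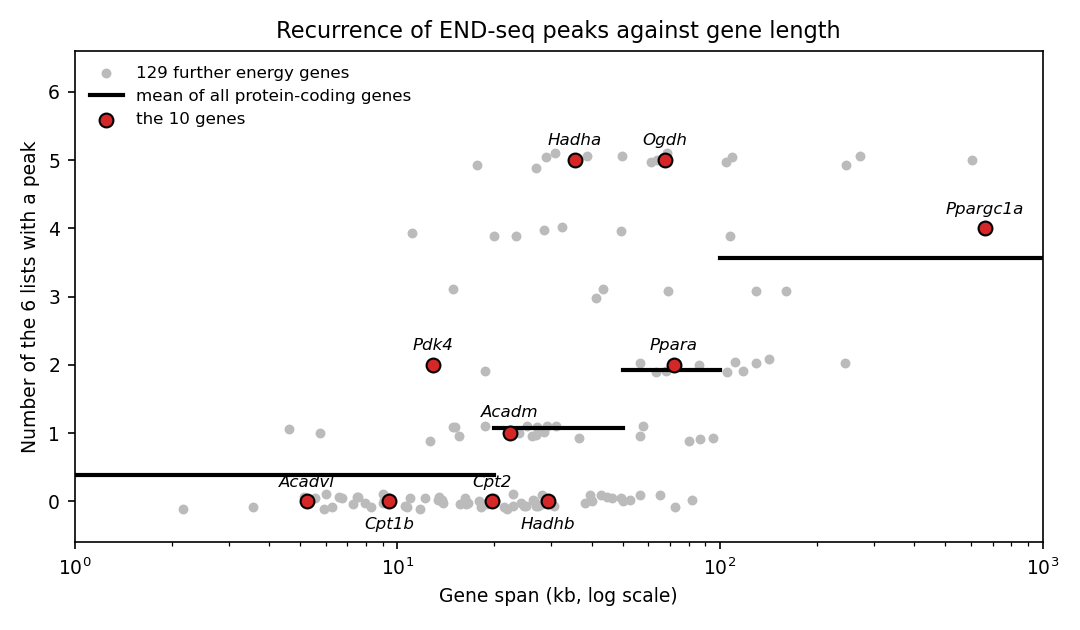
Number of the 6 lists with a peak (vertical axis) against gene span in kb (horizontal, log scale). Red points are the 10 genes, grey points 129 further energy metabolism genes (shifted slightly in height to separate them) and black lines the mean of all protein-coding genes in 4 length classes, which rises from 0.381 lists under 20 kb to 3.56 at 100 kb and over. Hadha and Ogdh lie at 5 lists.

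Neither Cpt1b nor Cpt2 carried a peak. Cpt1b, the muscle form of carnitine palmitoyltransferase on the outer mitochondrial membrane and the step inhibited by malonyl-CoA, lies on chromosome 15 from 89416405 to 89425862. Its nearest peak was 42.5 kb before the span, at the same distance in every list but WT 1. For nearest peaks, before and after a span are meant in the direction of chromosome numbering. That peak had folds of 44.1 in WT 2, 29.6 in WT 3, 48.4 in cKO 1, 36.9 in cKO 2 and 37.7 in cKO 3. The gene thus had a recurrent neighbour outside its window in both genotypes. Cpt2, which makes acyl-CoA again on the inner membrane, lies on chromosome 4 from 107903982 to 107923589. Its nearest peak was 39.1 kb after the span in WT 2, WT 3, cKO 2 and cKO 3 and 40.9 kb before it in cKO 1. Of other genes of carnitine transfer, Cpt1a, Slc25a20 and Crat had peaks, in cKO lists alone, as 15.2% of all genes did. The carnitine transporter gene Slc22a5 had none in any list. Cpt1a, the form of CPT1 best known from liver, had 1 in cKO 1, of fold 22.6, and 2 weaker ones in cKO 3. Slc25a20, the carnitine-acylcarnitine carrier, had 1 in cKO 3, and Crat, carnitine acetyltransferase, 1 in cKO 1 (fold 8.30).

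Acadvl and Acadm encode acyl-CoA dehydrogenases, which take the first step of each round of beta-oxidation, and had 1 weak peak between them. Acadvl, for very long chains (chromosome 11, 70010183 to 70015428), had none. Its nearest peak was 14.4 kb before the span by chromosome numbering in all lists but WT 1. As the gene is on the minus strand, this is the side away from its start. The folds ran from 15.6 in WT 3 to 45.6 in cKO 1. Acadm, for medium chains (chromosome 3, 153922353 to 153944643), had 1 peak in WT 2, from 153923279 to 153923447, and none in the other 5 lists. Its fold of 5.29 put it at percentile 9.45 of that list, and it was absent at a q of at most 0.00001.

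Hadha and Hadhb encode the alpha and beta subunits of the mitochondrial trifunctional protein, which completes the oxidation of long chains, and lie head to head on chromosome 5 with 272 bp between them. Only Hadha (30119423 to 30154980) had a peak. A peak in every list but WT 1, or in all 6, was found in 5.81% of genes of 20 to 50 kb, and in 12% of those of 50 to 100 kb, the length of Ogdh. It was the same site in WT 2, WT 3, cKO 1, cKO 2 and cKO 3, inside the gene about 11.6 kb from its start, and no peak lay in the stretch between the genes. The fold of a peak is its signal over the background of its own library, as the authors give it, and its percentile is its rank in that list from the weakest up. The folds at Hadha were 28.3 in WT 2, 13.1 in WT 3, 33.3 in cKO 1, 27.0 in cKO 2 and 29.2 in cKO 3. WT 3 was the lowest, and also the lowest by rank, at percentile 66.0 of its list against 76.6 to 84.6 in the other 4. In all 5 lists the peak began at the same base, 30143326, with ends spread over 34 bp. An edge shared by all lists was common over the genome: of 3361 regions with 1 peak in each of 5 lists, 75.3% had the same start or the same end in all. Hadhb (30155253 to 30184593) had its nearest peak at this Hadha site in all lists but WT 1.

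**Figure D3:**
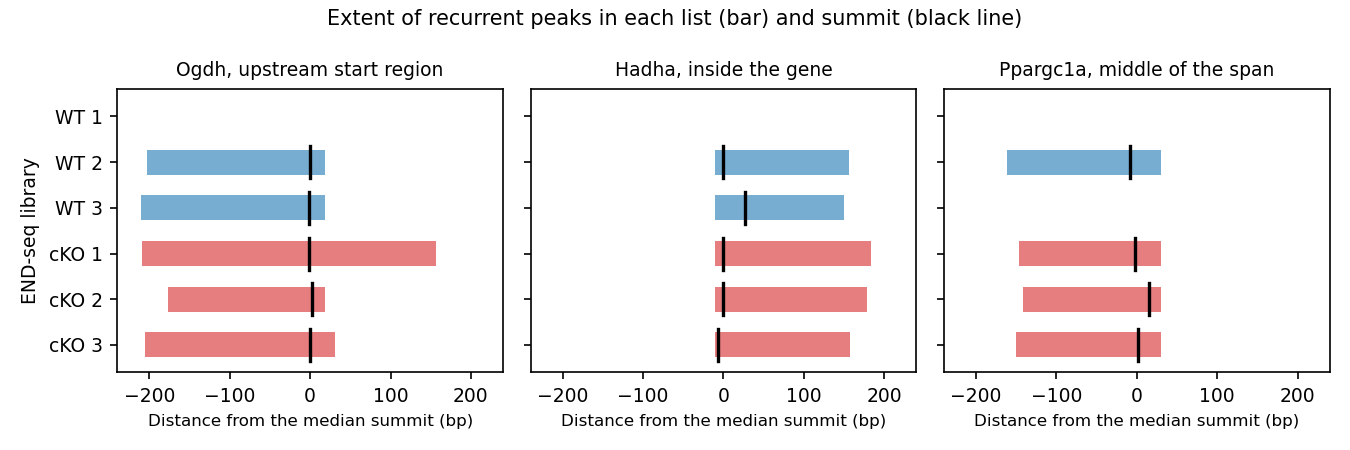
Extent of 3 recurrent peaks in each list (blue WT, red cKO) in bp from the median summit, in the direction of chromosome numbering; black lines mark each list's summit. The Hadha peak starts at 1 base in 5 lists, the Ppargc1a peak ends at 1 base in 4 lists, and the Ogdh summits lie within 3 bp of each other.

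Ogdh encodes the E1 subunit of the 2-oxoglutarate dehydrogenase complex, the tricarboxylic acid cycle step that takes 2-oxoglutarate to succinyl-CoA (chromosome 11, 6291597 to 6359094). Its first peak region, from 6292206 to 6292572, lies between the first and last listed starts, at 6291597 and 6292579. The only listed start inside it, 6292558, was reached by the peak of cKO 1 alone, which ended at 6292572. The peaks of the other lists ended at 6292434 or 6292447. The region also overlaps the end of the lncRNA Gm46270. The folds there were 50.4 in WT 2, 35.3 in WT 3, 50.1 in cKO 1, 38.8 in cKO 2 and 49.2 in cKO 3, and WT 1 had no peak. These stood at percentiles 98.2, 94.7, 97.5, 93.2 and 97.8 of their lists, so the site ranked high in both genotypes. It was also the only peak of the 10 genes left when each list was shortened to its 1345 peaks of highest fold, and it was then present in the same 5 lists.

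The Ogdh summits spanned 3 bp over the 5 lists. Over the 3361 regions with 1 peak in each of 5 lists the median span was 12 bp, and 3.12% had one of 3 bp or less. Unlike the Hadha peak, the Ogdh peak shared neither edge between all lists, with 5 starts and 3 ends. It was the only 1 of 22 peak regions at the 10 genes to overlap a RefSeq promoter window (250 bases before to 50 after a start), as 1.13% of all 46216 regions and 1.72% of the 3366 regions in 5 lists did. Further along Ogdh, cKO 1 had a peak of fold 9.68 and cKO 3 one of fold 4.58, at different places and both of low rank. The count of peaks in Ogdh was therefore 0, 1 and 1 in WT and 2, 1 and 2 in cKO, which overlap (two-sided p = 0.3 by an exact permutation of the 6 libraries, 20 assignments; Benjamini-Hochberg adjusted p = 1 over 8383 genes with a peak). The smallest p that 3 libraries against 3 allow is 0.1, so no gene could pass 0.05 in this test, and 0 did, before or after adjustment.

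**Figure D4:**
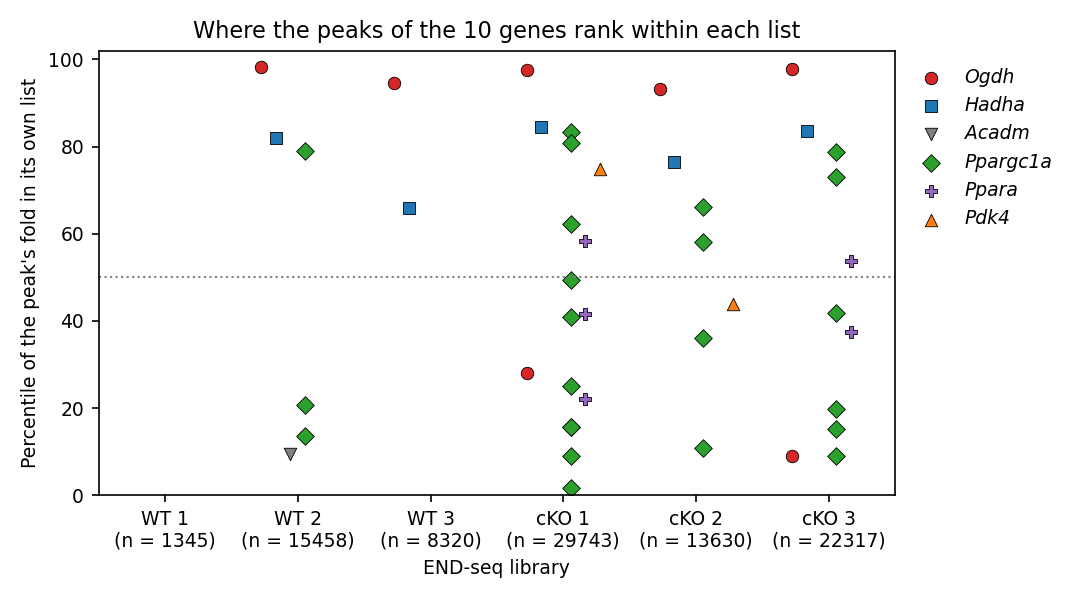
Percentile of each peak's fold within its own list (vertical axis, 100 is the highest fold) for peaks at the 10 genes, by library, with the number of peaks in the list. The first Ogdh site stands at percentile 93.2 or above in 5 lists, Hadha between 66.0 and 84.6, and the peaks of Ppargc1a from 1.64 to 83.2.

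Ppargc1a, which encodes PGC-1 alpha, the coactivator of mitochondrial biogenesis and oxidative metabolism, had the most peaks. RefSeq gives it a span of 662 kb (chromosome 5, 51454249 to 52115853, minus strand). WT 2 held 3 peaks in it and the other WT lists 0, while the cKO lists, in order of their number, held 10, 4 and 6. Every cKO list thus had more peaks than any WT list, with means of 6.67 ± 3.06 and 1.00 ± 1.73 (SD, n = 3 each; exact permutation p = 0.1, the smallest possible; Benjamini-Hochberg adjusted p = 1). Of all genes, 2.44% had peak numbers higher in every cKO than in every WT list, and of the 293 genes with spans of 400 to 1000 kb 21.8% did, so the pattern was common among genes of this length. Without cKO 1 the cKO mean was 5, and both remaining lists still held more peaks than any WT list, as in 2.72% of all genes. That share was not taken for genes of 400 to 1000 kb alone. At a q of at most 0.00001 the separation was lost, since WT 2 and cKO 2 then held 3 peaks each, with 8 in cKO 1 and 4 in cKO 3. Per 100 kb, Ppargc1a held 1.51, 0.603 and 0.904 peaks in cKO 1, cKO 2 and cKO 3, where all genic windows together held 1.23, 0.521 and 0.892. In WT 2 the values were 0.452 for Ppargc1a and 0.634 for all genic windows. WT 1 and WT 3 held 0 in Ppargc1a, beside 0.0367 and 0.314 for all genic windows.

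The peaks of Ppargc1a formed 13 regions, of which 2 were in 4 lists, 4 in 2 lists and 7 in 1 list. Of all regions, 9.01% were in 4 lists, 15.3% in 2 lists and 57.5% in 1 list. The start listed for the gene in the promoter table lies at 51567725, and 11 of the 13 regions lay in the 548 kb of the annotated span before it, with 2 in the 113 kb after it. The stronger of the 2 sites in 4 lists, from 51783428 to 51783619, had folds of 26.1 in WT 2, 30.3 in cKO 1, 22.1 in cKO 2 and 25.7 in cKO 3. It stood at percentiles of 66.2 to 80.8 and ended at the same base in all 4 lists. The other site of 4 lists, from 51959417 to 51959605, had folds of 7.06 in WT 2, 19.9 in cKO 1, 19.1 in cKO 2 and 10.5 in cKO 3, with WT 2 lowest also by rank, at percentile 20.8 against 41.8 to 62.2. In cKO lists alone there were 10 regions, beside 57.5% of all regions, and 6 without cKO 1, beside 42.7%. The strongest of the 10 lay from 51478874 to 51479030, in the part after the listed start. Its folds were 32.2 in cKO 1 and 22.2 in cKO 3, and cKO 2 had no peak there. The 7 regions of a single list had folds from 4.15 to 13.1, and 4 of them rested on cKO 1 alone.

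**Figure D5:**
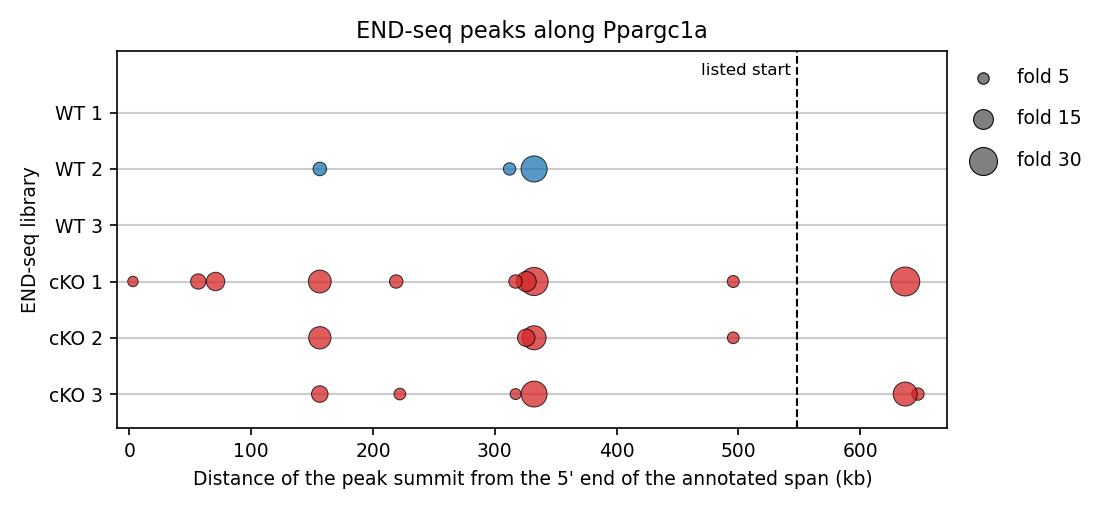
END-seq peaks along Ppargc1a in each library, by distance of the summit from the 5' end of the annotated span in kb; circle area is proportional to the fold over background (blue WT, red cKO) and the dashed line is the start listed in the promoter table. The cKO lists have 10, 4 and 6 peaks, WT 2 has 3, and WT 1 and WT 3 have none.

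The genes whose highest folds over the 6 libraries were most like those of Ppargc1a, by Euclidean distance of log2(1 + highest fold) with 0 for a list without a peak, were Slc44a5 (distance 0.09), Erg (0.13) and Klf17 (0.17). Each had peaks in the same 4 lists, but with 1 in WT 2 and 1 to 3 in each cKO list, so the likeness is in the highest folds alone. In Ppargc1a the highest fold came from the region starting at 51478874 in cKO 1. In WT 2, cKO 2 and cKO 3 it came from the region starting at 51783428. In all, 1046 other genes had peaks in exactly these 4 lists, and no other gene had the same number of peaks in each.

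Ppara, the gene of the fatty acid receptor PPAR-alpha (chromosome 15, 85734910 to 85806851), had peaks in cKO 1 and cKO 3 alone, 3 and 2 of them. The shared sites began at the same bases in both lists. The first, at 85745171, had folds of 13.1 in cKO 1 and 13.9 in cKO 3, and the second, at 85769959, had 18.4 and 9.44. These shared sites were of middle rank, at percentiles from 37.5 to 58.3. The third peak of cKO 1 lay from 85734978 to 85735292, inside the annotated span near its 5' end, with a fold of 8.30. Its summit was 747 bp before the listed start. None of the Ppara peaks was among the 8320 of highest fold in its list. The numbers of peaks overlapped between genotypes because cKO 2 had none (exact permutation p = 0.4; Benjamini-Hochberg adjusted p = 1).

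Pdk4, a target of PPAR-alpha and the kinase gene of the switch from glucose to fat (chromosome 6, 5483351 to 5496278), was hit once in cKO 1, once in cKO 2 and not in cKO 3 or any WT list. The site, from 5489096 to 5489306, was inside the gene 6988 bp from its listed start. Its folds were 26.1 in cKO 1 and 14.1 in cKO 2, at percentiles 74.8 and 43.9, and the summits were 4 bp apart. At 12.9 kb Pdk4 was the only hit member under 20 kb, a length at which 7.4% of genes had a peak in at least 2 cKO lists. Its exact permutation p was 0.4 (Benjamini-Hochberg adjusted p = 1). Ppara and Pdk4 were thus the 2 members with peaks in at least 2 cKO lists and no WT list, a pattern of 5.61% of all genes, and each rested on cKO 1 as 1 of its 2 lists.

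Over the 10 genes there were 43 peaks in 22 regions, and all lay inside the gene spans. Regions in more lists had higher folds. The 11 regions of 1 list had a median fold of 5.89, with percentiles from 1.64 to 41.0, the 7 regions of 2 lists a median of 13.5, the 2 of 4 lists a median of 21.0 and the 2 of 5 lists a median of 34.3. Both genotypes held 4 of the 22 regions, beside 28.4% of all 46216 regions. The cKO lists alone held 16 (57.5% of all regions) and WT 2 alone held 2 (14.1% of all regions were in WT lists alone). Without cKO 1 there were 26 peaks in 16 regions, of which 10 were in cKO lists alone (42.7% of all regions), 2 in WT lists alone (23.4%) and 4 in both (33.9%). The gene table used has no exons, so sites are placed only by span and listed start.

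Further genes of the same pathways, 129 in 8 lists, were hit in at least 1 list in 62 cases (48.1%, against 38.3% of all genes), and their median span was 26.6 kb against 17.2 kb for all genes. At least 2 cKO lists had a peak at 36 of them (27.9%, against 23.1% of all genes) and at least 2 WT lists at 18 (14%, against 9.56%). Without cKO 1, 50 had a peak (38.8%, against 31.7%), and 21 had one in both remaining cKO lists (16.3%, against 15%). Peak numbers were higher in every cKO than in every WT list at 3 of the 129 (Slc27a4, Acad11 and Sucla2; 2.44% of all genes), and the reverse was seen at 0 (0.00914% of all genes). No gene passed the exact test.

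For the separate lists below, the shares over all genes to read beside each count are 38.3% for a peak in any list, 23.1% for at least 2 cKO lists and 9.56% for at least 2 WT lists. Of 29 other tricarboxylic acid cycle and pyruvate genes, 10 had a peak (34.5%), 5 of them in at least 2 cKO lists and 3 in at least 2 WT lists. Dlst, the E2 subunit that works with the product of Ogdh, had 1 peak each in WT 2, cKO 1, cKO 2 and cKO 3, with folds of 21.8, 44.3, 29.2 and 31.5, whereas Dld, the E3 subunit, had none. Suclg2, a subunit of the next enzyme, succinyl-CoA synthetase, had 3 peaks in WT 2, 2 in WT 3 and 3, 4 and 4 in the cKO lists, and Pdk3 on chromosome X had 1 in each of these 5 lists. Among 13 genes of AMPK, sirtuins and malonyl-CoA, which inhibits CPT1, 8 had a peak and 3 had one in at least 2 cKO lists. Mlycd, which degrades malonyl-CoA, and Acacb and Acaca, which make it, were each hit in every list but WT 1. The highest folds of Mlycd were 34.1 in WT 2, 18.3 in WT 3, 46.0 in cKO 1, 27.5 in cKO 2 and 35.7 in cKO 3.

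Regulators akin to Ppargc1a and Ppara were hit widely: 17 of 20 had a peak, 15 in at least 2 cKO lists and 6 in at least 2 WT lists. Without cKO 1, 16 had a peak and 7 had one in both remaining cKO lists, a stricter condition than 2 of 3. Their median span was 84.1 kb. All 7 of 100 kb and over had a peak in at least 2 cKO lists (79.6% of all genes of that length), as did 2 of 5 of 50 to 100 kb (43.6%), 4 of 4 of 20 to 50 kb (22.8%) and 2 of 4 under 20 kb (7.4%). Mlxipl, the gene of the glucose-sensing factor ChREBP, had 1 peak in every list but WT 1, with folds of 51.9 and 37.2 in WT 2 and WT 3 and 55.8, 45.0 and 55.2 in cKO. Esrrg, which encodes the estrogen-related receptor gamma, spans 606 kb, near the length of Ppargc1a, and held 0, 8 and 1 peaks in WT and 10, 5 and 6 in cKO. Its WT and cKO numbers overlapped. Ppargc1b, the paralog of Ppargc1a, had 1 peak in every list but WT 1, with a mean highest fold of 24.3 ± 9.43 (SD, n = 5).

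Fatty acid uptake and activation genes had a peak in 7 of 14 cases (50%), 4 of them in at least 2 cKO lists and 2 in at least 2 WT lists. The acyl-CoA synthetase gene Acsl6 was hit in every list but WT 1, the fatty acid translocase gene Cd36 in WT 2, WT 3, cKO 1 and cKO 3, and the transporter gene Slc27a4 in the cKO lists alone, with a mean highest fold of 8.85 ± 3.84 (SD, n = 3). Other mitochondrial beta-oxidation genes had a peak in 6 of 14 cases (42.9%). Acad11 had 1 peak in WT 2, 1 in WT 3 and 3, 2 and 3 in the cKO lists. Hadh was the only gene of the 8 lists with a peak in WT 1, of fold 5.86, and Acadl was hit in WT 2 and all cKO lists. Peroxisomal genes were hit in 4 of 10 cases (40%; 2 without cKO 1), and lipolysis, ketone and uncoupling genes in 2 of 9 (22.2%; 1 without cKO 1), among them Oxct1. Glucose uptake and glycolysis genes had a peak in 8 of 20 cases (40%), with Ldhb in every list but WT 1, Hk2 in WT 2 and all cKO lists and Slc2a1 in 4 lists.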

How the data were processed

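END-seq peaks were called per library and deposited as lists with, per the file headers, a fold change over background (a linear ratio to the library's own background), −log10 p and q values (deposited as logpvalue and logqvalue) and a score. The submitters' processing notes name FastQC, SEACR, DiffBind and mm10 without roles; no aligner or peak caller is named with its role. Starts were made 1-based, and peaks off chromosomes 1 to 19, X and Y were left out. Lamin A intervals, which are on another build, and the IgG libraries were not used.

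Genes came from RefSeq (GRCm38.p6). All deposited peaks were used. Folds were described and ranked within lists, not tested between genotypes. Peak numbers per gene were tested over all 8383 genes with a peak by an exact permutation test with Benjamini-Hochberg adjustment. Members and lists were chosen with earlier results of these data known. Genes outside the 10 were named as up to 3 per list, hit in at least 3 of 6 lists. They were those with the most lists and then the highest mean fold. The 3 genes most like the member with most peaks were also named. Sucla2, Dld, Cpt1a, Slc25a20, Crat and Slc22a5 fall outside that rule, picked once values were known. Promoter sequences were matched by symbol for 9 of the 10 genes, and Cpt1b was not among them. Overlap and test code was tested on simulated data. The labels do not say whether libraries share a preparation day. Versions were scipy 1.17.1, pandas 2.3.3, matplotlib 3.10.9 and numpy 2.4.6 under Python 3.11.15.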

Additional observations from a re-analysis of the deposited data

How the results depend on the processing

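Alternative settings gave 173 values: 153 lay within 1 SD of the replicates (counts within 1.5 times), 20 lay outside and 0 reversed. Hadhb, Cpt1b, Cpt2 and Acadvl had no peak, so settings that only remove peaks, libraries or flanks could not change their values. Only the difference in genes hit could be counted as reversed. The number 153 is therefore not a measure of stability. With every list shortened to 1345 peaks, 1 of the 10 genes, Ogdh, kept a peak, and the difference in genes hit was 0.333. Leaving out each library in turn, the members with a peak in every cKO and no WT list numbered 0 to 1, a condition that loosens when a library is left out. Without cKO 1, a setting added after the data were seen, regions in cKO lists alone numbered 10 in place of 16 at the 10 genes and 6 in place of 10 at Ppargc1a. At a q of at most 0.00001, 5 genes had a peak. The replicate block gave the same difference of 2.33 genes, and its exact sign-flip test called 0 genes, adjusted or not (smallest possible p 0.25). Same-numbered libraries did not deviate together (correlations over 5727 genes of -0.003, -0.066 and -0.028). Libraries of different number gave -0.119 to 0.129. These values give no ground for pairing by number, but they cannot exclude a shared preparation. Alternatives with 0 called genes say nothing on stability, since the exact test cannot pass 0.05 here.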
